A study of Homo sapiens with 6 samples.

Results

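The genes described here are 38 that carry out chromosomal DNA replication or make its deoxynucleotide (dNTP) precursors, together with a pair of E2F transcription factors, E2F1 and E2F2. They were chosen by symbol, with each gene taken from the row of the count table that bears its name, and all 38 were found among the 59653 rows. RNA had been sequenced from SK-OV3, a human ovarian cancer cell line whose labels give a wildtype genotype, 48 h after transfection with 50 nM siRNA. The cells received either a pool of siRNAs against the lncRNA PVT1 (siPVT1, 3 libraries) or a pool of non-targeting siRNAs (siControl, 3 libraries). The study sequenced these cells to ask how silencing PVT1 alters expression across the genome. A single pool against PVT1 was used, so effects of lower PVT1 and other effects of the pool cannot be told apart. The labels do not say whether replicates were separate cultures, and p-values then measure the spread between these libraries, which may be technical.

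Replication starts at origins that the origin recognition complex (ORC) marks, where CDC6 and CDT1 load the ring-shaped MCM2-7 helicase in G1 and geminin (GMNN) later blocks further loading by binding CDT1. In S phase CDC45 and the GINS complex join the ring to form the active helicase. Polymerase alpha-primase then makes the primers, and polymerases delta and epsilon extend DNA with the sliding clamp PCNA, which the RFC complex loads. Ribonucleotide reductase (RRM1 with RRM2), thymidylate synthase (TYMS) and thymidine kinase (TK1) supply dNTPs. Many of these genes are classical E2F targets whose RNA varies through the cell cycle. In RNA of a whole culture, fewer cells in S phase and less RNA per cell cannot be told apart.

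Total counts ranged from 28383171 to 35059576 per library, and genes that reached 5 normalized counts in 3 or more of the libraries were tested, 19008 in number. All 38 members were among them. The fewest raw counts of any member in a library were 39, for E2F2. Normalized counts are the deposited estimated counts divided by the library's effective size, which is its total adjusted by the TMM method of edgeR, and brought back to the scale of counts with the mean effective size. Values of single libraries are listed in the order of the replicate number. PVT1, the target of the siRNAs, had 3298, 4090.5 and 3377 normalized counts in siControl and 2349.7, 2111 and 2062 in siPVT1. It was lower in siPVT1 by a log2 fold change of -0.72 (standard error 0.097, edgeR adjusted p = 0.000342), with all siPVT1 libraries below all siControl libraries. An exact permutation test on its log2 normalized counts gave p = 0.1, the smallest value possible with 3 libraries in each group. The keratins KRT8 and KRT18 had mean levels of 8575 ± 685 and 8551 ± 525 normalized counts (SD, n = 3) in siControl, and EPCAM, another epithelial marker, 96.7 ± 31.3 (SD, n = 3). In siPVT1 these levels were 10696 ± 431, 11040 ± 377 and 66.5 ± 35.4 (SD, n = 3). Of 10 markers of leukocytes, endothelium and fibroblasts, the T cell marker CD3E was at 0 in every library. The summed level of the 10 was 2157 to 2194 normalized counts in siControl and 8908.5 to 11185 in siPVT1. Most of this sum was CDH5, the endothelial VE-cadherin, at 1998 ± 7.09 and 9314 ± 1108 (SD, n = 3). The other endothelial markers listed were higher in siPVT1 as well. The remaining listed markers, epithelial ones included, did not all change in the same direction. Some of them rose and some fell by a log2 fold change of more than 1 in size. The part of these marker shifts in the results for replication genes was not tested.

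The siPVT1 libraries differed from each other in the replication genes far more than the siControl libraries did. For all 38 members the normalized count was higher in siPVT1 replicate 3 than in siPVT1 replicates 1 and 2, and for 35 of 38 it was lowest in siPVT1 replicate 1. Over all tested genes, 41.3% were highest in siPVT1 replicate 3 among the siPVT1 libraries and 37.3% were lowest in siPVT1 replicate 1. The exceptions to the lowest place of siPVT1 replicate 1 were POLA2, PRIM1 and POLD1, which were lowest in siPVT1 replicate 2. The median coefficient of variation of the members was 4.04% in siControl and 28.3% in siPVT1, against 6.9% and 12.97% over all tested genes, and for all 38 members it was larger in siPVT1, as it was for 68.3% of all tested genes. The median log2 ratio of the members to the siControl mean was -0.73 in siPVT1 replicate 1, -0.48 in siPVT1 replicate 2 and 0.032 in siPVT1 replicate 3. PVT1 itself did not follow this order, since its log2 ratios were -0.61, -0.77 and -0.80. Replicate 3 of siPVT1 was also the library with the highest total count, 35059576, and the part of that in its levels was not tested. Because of these values, results are given with and without siPVT1 replicate 3, which was thus singled out after they were seen. Each other library was left out in turn as well. Because siPVT1 replicate 3 was the highest siPVT1 library for all 38 members, leaving it out moves their fold changes down. The lower values without it are thus no separate support for a fall.

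**Figure D1:**
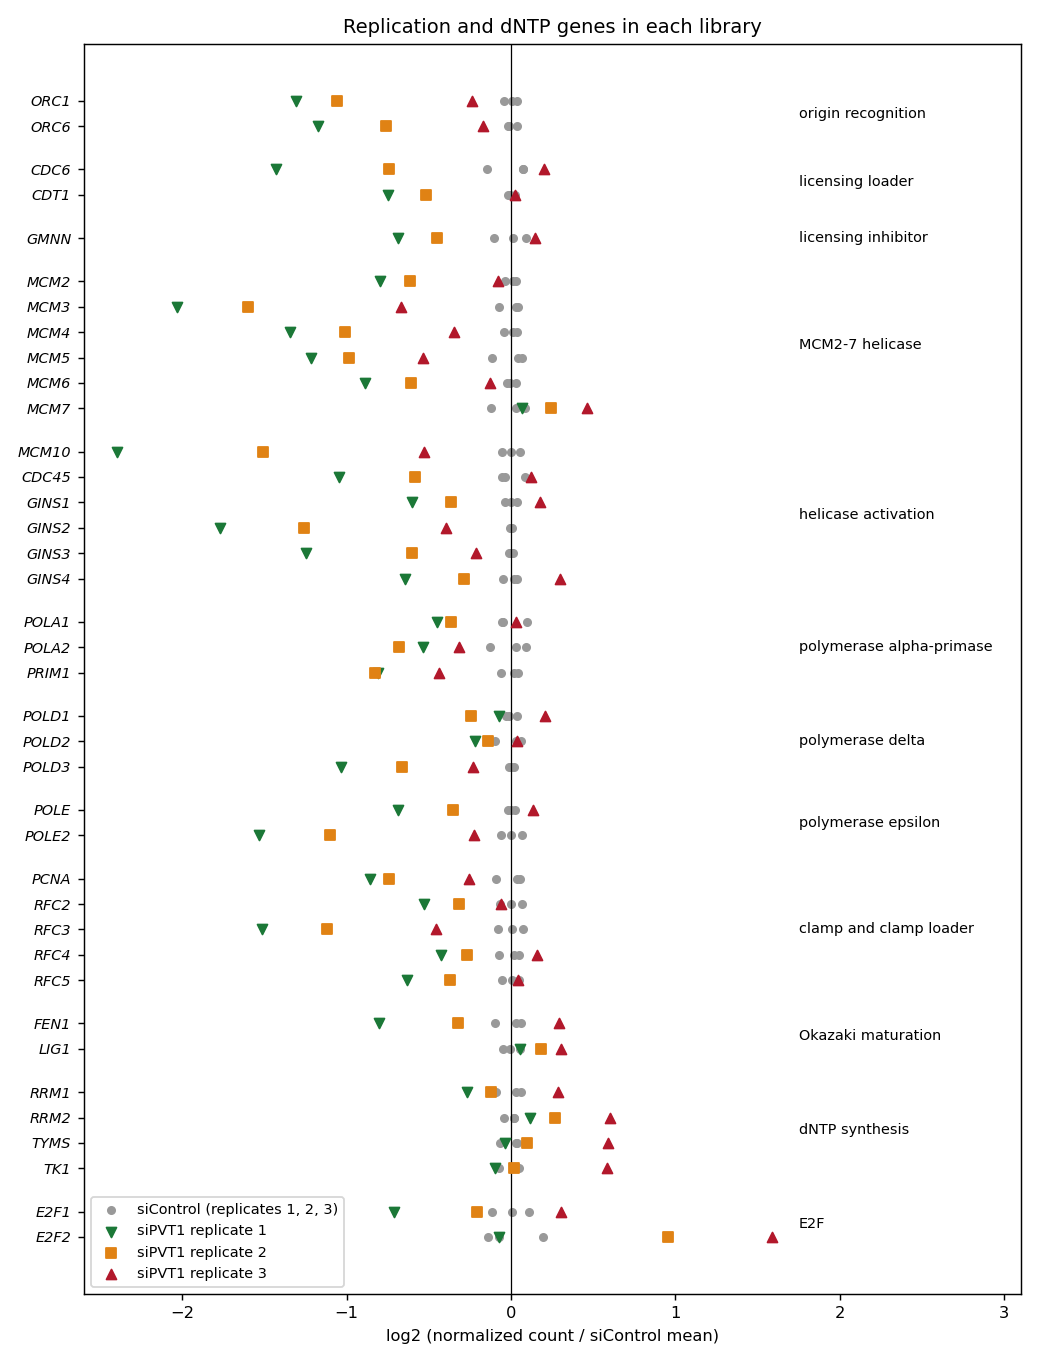
Log2 ratio of the normalized count of each of the 38 genes in each library to the siControl mean of that gene (x axis), with genes grouped by role (y axis). Grey points are the 3 siControl libraries and coloured symbols the siPVT1 libraries. The red triangles of siPVT1 replicate 3 lie to the right of the other siPVT1 symbols for all 38 genes, and the median over the genes is -0.73, -0.48 and 0.032 in siPVT1 replicates 1, 2 and 3.

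Between the groups, 16 of the 38 members were lower in siPVT1 at an edgeR adjusted p under 0.05, which is 42.1% of them, against a background of 28.4% of all tested genes. Only RRM2 was higher, 2.63% of the members against a background of 29.5%. The other 21 members did not pass the test. With a log2 fold change of at least 1 in size required as well, MCM3, MCM10 and GINS2 were lower (background 9.64%) and 0 members were higher (background 11.8%). DESeq2 also gave 3 and 0 for both thresholds together. At an unadjusted p under 0.05 in edgeR, 17 members were lower (background 30.6%), of which 3 reached the fold threshold, and 3 were higher (RRM2, MCM7 and E2F2, background 31.8%), of which 0 reached it. The 16 lower members were also the 16 whose siPVT1 libraries all lay below all siControl libraries (background 32.3%), and RRM2 was the only member whose siPVT1 libraries all lay above them (background 33.2%). The median log2 fold change of the members was -0.33, with a range from -1.31 for MCM3 to 0.98 for E2F2, against a median of 0.0014 over all tested genes. With siPVT1 replicate 3 left out, 31 of 38 members were lower (background 33.4%), RRM2 was still the only member that was higher (background 30.9%), 9 were lower past both thresholds (background 11.2%), and the median was -0.60. Leaving out siPVT1 replicate 1 gave 14 lower members (36.8%, background 28.9%) and 5 higher (13.2%, background 27.5%) by adjusted p, with 1 lower (background 9.33%) and 1 higher (background 9.84%) past both thresholds. Leaving out siPVT1 replicate 2 gave 7 lower members, 18.4% against a background of 25.4%, and 1 past both thresholds (background 9.48%). Without siControl replicate 1, 10 were lower (26.3%, background 22.9%), without siControl replicate 2, 8 (21.1%, background 25%), and without siControl replicate 3, 10 (26.3%, background 23.2%). The share of lower members was thus near or below that of all tested genes in each of these fits without siPVT1 replicate 2 or a siControl library. Scaling by the total count, which moved the median of all genes to -0.15 and the calls past both thresholds from 1833 lower and 2248 higher to 2355 and 1835, gave 21 members lower (55.3%, background 36.2%) and 0 higher (background 23.6%) by adjusted p. Of the 16, 7 were lower in each of the 13 fits that were run, namely MCM3, MCM4, MCM5, PCNA, POLA2, PRIM1 and RFC3.

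**Figure D2:**
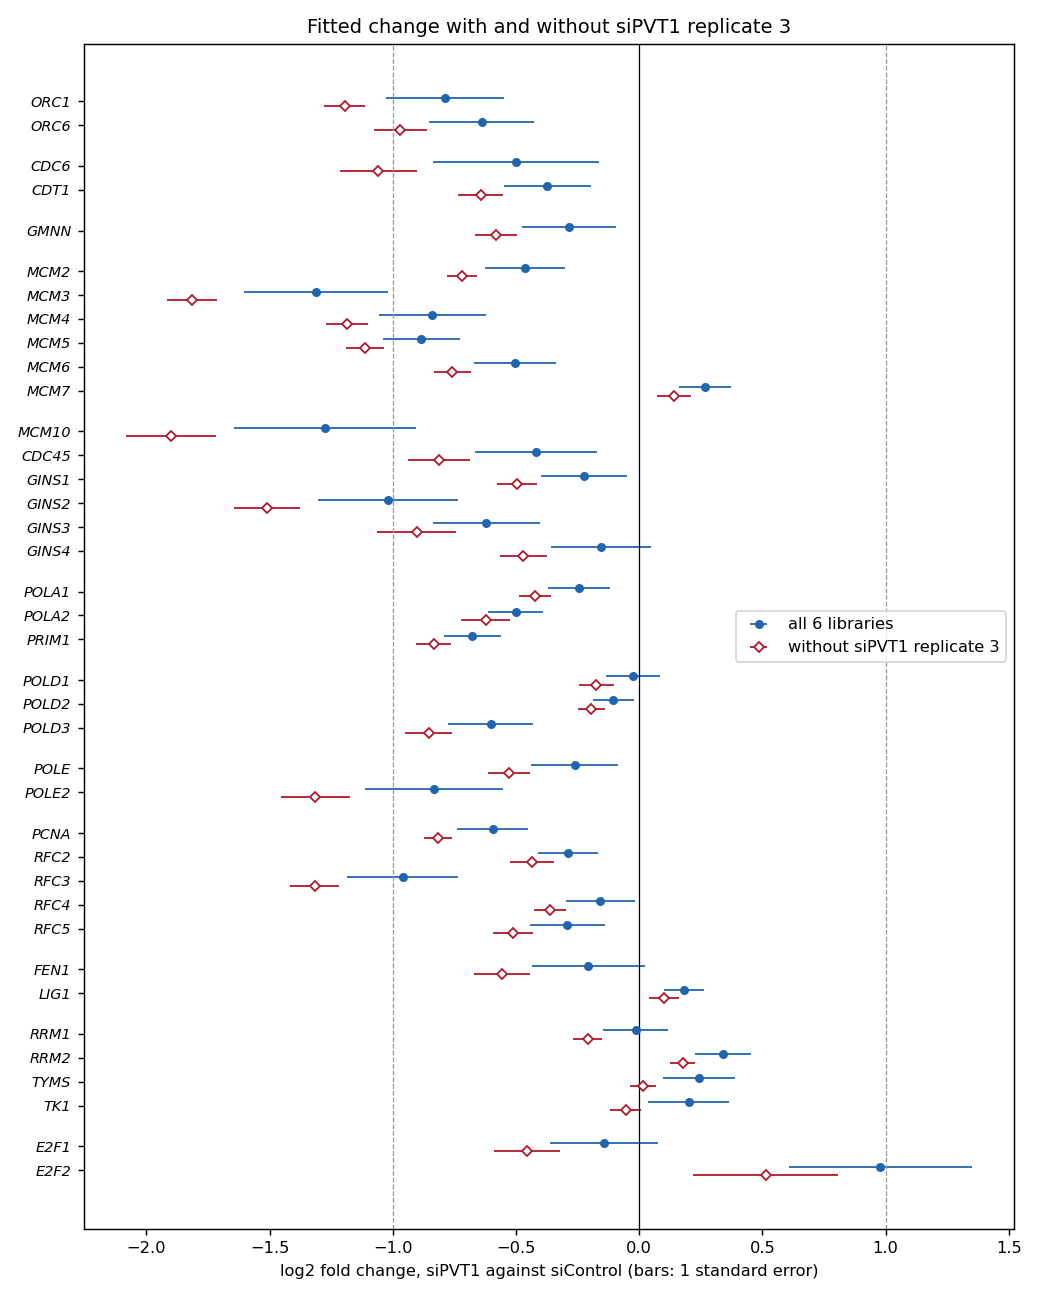
Fitted log2 fold change of each of the 38 genes, siPVT1 against siControl (x axis), with 1 standard error as the bar, from all 6 libraries (blue circles) and without siPVT1 replicate 3 (red diamonds). Dashed lines mark a log2 fold change of 1 in either direction. The red diamonds lie to the left of the blue circles for all 38 genes and have a median of -0.60 against -0.33. This shift follows from siPVT1 replicate 3 being the highest siPVT1 library for all 38 genes.

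Both origin recognition members fell. ORC1, the large subunit that binds ATP, had 923, 873 and 901 normalized counts in siControl against 363, 430.5 and 762 in siPVT1. Its siPVT1 libraries were all below the siControl libraries, with siPVT1 replicate 3 nearest to them. The log2 fold change was -0.79 (standard error 0.239, edgeR adjusted p = 0.0212), and -1.20 (standard error 0.083) without siPVT1 replicate 3. ORC6, the smallest subunit, had 878, 876 and 909 normalized counts in siControl and 393, 523 and 787 in siPVT1 (log2 fold change -0.64, standard error 0.213, edgeR adjusted p = 0.0309). Neither call survived the omission of any siControl library or of siPVT1 replicate 2, where the adjusted p of ORC1 lay between 0.054 and 0.0793 and that of ORC6 between 0.0716 and 0.0984.

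The loaders CDC6 and CDT1 and the inhibitor GMNN did not pass the test with all 6 libraries. CDC6, an ATPase that brings the helicase to ORC, spread widest in siPVT1 of these. It had 2815, 2419 and 2815 normalized counts in siControl and 997, 1604 and 3076 in siPVT1, so that siPVT1 replicates 1 and 2 lay below every siControl library and siPVT1 replicate 3 above every siControl library. Its log2 fold change was -0.50 (standard error 0.337, edgeR adjusted p = 0.237), and -1.06 (standard error 0.157, edgeR adjusted p = 0.000224) without siPVT1 replicate 3. CDT1, the partner of CDC6 in loading, had 456, 452 and 465 normalized counts in siControl and 272, 320.1 and 465 in siPVT1 (log2 fold change -0.37, edgeR adjusted p = 0.106). GMNN had 966, 842.5 and 914.5 in siControl and 563.5, 664 and 1003 in siPVT1 (log2 fold change -0.28, edgeR adjusted p = 0.234). Its values show the same arrangement as CDC6, with siPVT1 replicate 3 above all siControl libraries. Without siPVT1 replicate 3, CDT1 and GMNN were lower too, at -0.64 and -0.58.

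Among the 6 subunits of the MCM2-7 ring, 5 fell and MCM7 did not pass the test. MCM3 (ENSG00000112118, chromosome 6 of GRCh38, 52264014 to 52284881 on the minus strand, 17 exons in its canonical transcript) had the lowest log2 fold change of all members. Its normalized counts were 2470.2, 2306 and 2493 in siControl and 592, 799.8 and 1526 in siPVT1. The highest siPVT1 library was thus well under the lowest siControl library. The log2 fold change was -1.31 (standard error 0.292, edgeR adjusted p = 0.00505), and it was past both thresholds without siPVT1 replicate 1 (-1.07), without siPVT1 replicate 2 (-1.20) and without siPVT1 replicate 3 (-1.81). MCM4 went from 9213, 8716 and 9068 normalized counts in siControl to 3536, 4464 and 7081 in siPVT1 (log2 fold change -0.84, standard error 0.216, edgeR adjusted p = 0.0104). MCM5 went from 2376, 2098 and 2337 to 977, 1146 and 1563 (log2 fold change -0.88, standard error 0.156, edgeR adjusted p = 0.00152). The groups of MCM4 and of MCM5 did not overlap. MCM2 and MCM6 fell less. MCM2 had 1868, 1781 and 1844 normalized counts in siControl and 1051, 1198 and 1729.8 in siPVT1 (log2 fold change -0.46, edgeR adjusted p = 0.0386). MCM6 had 2122, 2042 and 2065 in siControl and 1123, 1359 and 1901 in siPVT1 (log2 fold change -0.51, edgeR adjusted p = 0.0296). In MCM2 and MCM6 siPVT1 replicate 3 came just below the lowest siControl library. Both calls were lost when any siControl library or siPVT1 replicate 2 was left out, and that of MCM2 also without siPVT1 replicate 1, with adjusted p-values up to 0.12 for MCM2 and 0.0945 for MCM6.

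MCM7 (ENSG00000166508, chromosome 7, 100092233 to 100101940 on the minus strand) is the sixth subunit of the ring. It had 2172, 1879 and 2092 normalized counts in siControl and 2144, 2426 and 2819.8 in siPVT1, so that the groups overlapped (log2 fold change 0.27, standard error 0.106, edgeR adjusted p = 0.0595). DESeq2 and the fit without a filter on low counts put it past the threshold as higher, at adjusted p-values of 0.0493 and 0.0334, and so did leaving out siPVT1 replicate 1 (log2 fold change 0.34, edgeR adjusted p = 0.00904). MCM7 holds the microRNA genes MIR106B, MIR93 and MIR25 within the gene and overlaps AP4M1 on the opposite strand. The difference between MCM7 and the other subunits was not tested.

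Per kilobase of canonical transcript, the subunits changed places. In siControl the levels were 2215 ± 62.9 normalized counts per kb for MCM4, 830.1 ± 61.4 for MCM7, 789.8 ± 33.2 for MCM3, 657 ± 43.5 for MCM5, 553 ± 10.9 for MCM6 and 533 ± 13.1 for MCM2 (SD, n = 3). MCM7 and MCM3 lay within their spread of each other, and so did MCM6 and MCM2. In siPVT1 the levels were 1238 ± 453 for MCM4, 998 ± 138 for MCM7, 389 ± 106 for MCM6, 386 ± 104 for MCM2, 355 ± 87.2 for MCM5 and 317 ± 159.8 for MCM3. In these group means MCM3 moved from the third to the last place, though it was not last in every siPVT1 library. The levels of MCM6, MCM2, MCM5 and MCM3 in siPVT1 lay within their spread of each other.

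**Figure D3:**
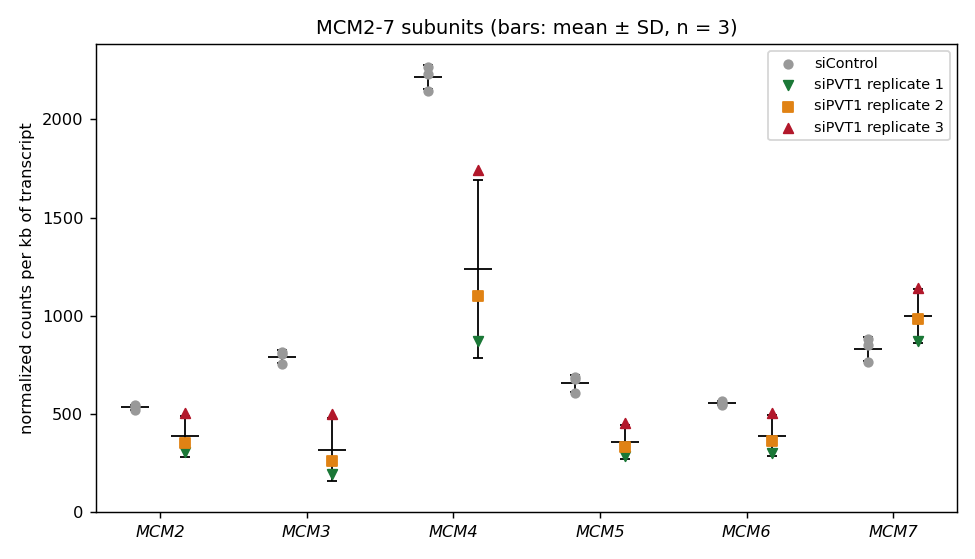
Normalized counts per kilobase of canonical transcript (y axis, from 0) for the 6 subunits of the MCM2-7 helicase (x axis) in each library, with the mean and SD of each group (n = 3) as black bars. MCM2 to MCM6 lie lower in siPVT1, with siPVT1 replicate 3 nearest to siControl, and MCM7 has a mean of 830.1 in siControl and 998 in siPVT1.

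In the step that activates the helicase, MCM10, GINS2 and GINS3 fell, and CDC45, GINS1 and GINS4 did not pass the test. MCM10 (ENSG00000065328, chromosome 10, 13161558 to 13211110 on the plus strand), which is needed to switch the loaded helicase on, had the largest coefficient of variation in siPVT1 of any member, 62.3%. It had 1452, 1401 and 1514 normalized counts in siControl and 276, 511 and 1006 in siPVT1 (log2 fold change -1.28, standard error 0.37, edgeR adjusted p = 0.0176). In siPVT1 replicate 1 its log2 ratio to the siControl mean was -2.40, the lowest of any member in any library, and in siPVT1 replicate 3 it was -0.53. Its call was lost without siControl replicate 2 (edgeR adjusted p = 0.0503) and without siPVT1 replicate 2 (edgeR adjusted p = 0.0694).

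The GINS complex has 4 subunits. GINS2 (ENSG00000131153, chromosome 16, 85676198 to 85690073 on the minus strand) had 480.0, 481 and 478 normalized counts in siControl, a spread of 1.71 (SD, n = 3), and 140.3, 199.9 and 364 in siPVT1. The log2 fold change was -1.02 (standard error 0.285, edgeR adjusted p = 0.015), and -1.51 without siPVT1 replicate 3. Without siPVT1 replicate 2 the call was lost (edgeR adjusted p = 0.0614). GINS3 had 309.5, 311 and 315 in siControl and 131, 205 and 269 in siPVT1 (log2 fold change -0.62, edgeR adjusted p = 0.0372). For GINS2 and GINS3 no siPVT1 library reached a siControl library, but the call of GINS3 was lost without any siControl library or siPVT1 replicate 2, at adjusted p-values from 0.0838 to 0.0925. GINS1 and GINS4 had log2 fold changes of -0.22 and -0.16, and in both siPVT1 replicate 3 was above every siControl library. CDC45, the partner of GINS in the active helicase, had 493, 487 and 536 normalized counts in siControl and 245, 336.5 and 549 in siPVT1 (log2 fold change -0.42, edgeR adjusted p = 0.184). Without siPVT1 replicate 3, the 6 genes of this step were all lower, from -1.90 for MCM10 to -0.47 for GINS4.

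Of polymerase alpha-primase, the primase subunit PRIM1 and the accessory subunit POLA2 fell, and these were the members in which the siPVT1 libraries lay closest together among those that fell. PRIM1 had 711, 661 and 698 normalized counts in siControl and 394, 389 and 509 in siPVT1 (log2 fold change -0.68, standard error 0.115, edgeR adjusted p = 0.00121). POLA2 had 522, 543.5 and 467 in siControl and 352, 319 and 409.7 in siPVT1 (log2 fold change -0.50, standard error 0.113, edgeR adjusted p = 0.00532). Neither gene had overlapping groups, and both calls held with any library left out. Both share their position with other protein-coding genes on the same strand, NACA among them for PRIM1, and their counts are uncertain where reads could be split. POLA1, the catalytic subunit, had a log2 fold change of -0.24 (edgeR adjusted p = 0.132).

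For the replicative polymerases the catalytic subunits did not pass the test while an accessory subunit of each fell. The difference between the subunits was not tested. POLD3, an accessory subunit of polymerase delta, had 1192, 1179 and 1167 normalized counts in siControl and 576, 743 and 1005 in siPVT1 (log2 fold change -0.60, standard error 0.173, edgeR adjusted p = 0.0167). POLE2, an accessory subunit of polymerase epsilon, had 248, 259.6 and 237 in siControl and 85.7, 116 and 212 in siPVT1 (log2 fold change -0.83, standard error 0.28, edgeR adjusted p = 0.0321). In both, siPVT1 replicate 3 lay below siControl but nearest to it, and the other siPVT1 libraries lay further below. The call of POLD3 was lost without siControl replicate 2 (edgeR adjusted p = 0.0525) or siPVT1 replicate 2 (edgeR adjusted p = 0.0587), and that of POLE2 without any library except siPVT1 replicate 3, at adjusted p-values from 0.0529 to 0.109. The catalytic subunits POLD1 and POLE had log2 fold changes of -0.025 (standard error 0.111) and -0.26 (standard error 0.177), with overlapping groups. POLD2, the other polymerase delta subunit among the members, was at -0.10 (standard error 0.082). Outside the members, the polymerase delta subunit POLD4 was higher at 0.76 (edgeR adjusted p = 0.0081). POLE3 and POLE4, further accessory subunits of polymerase epsilon, were lower at -0.64 (edgeR adjusted p = 0.00995) and -0.63 (edgeR adjusted p = 0.00216). Their siPVT1 libraries all lay below all siControl libraries. Without siPVT1 replicate 3, POLE was lower at -0.53, POLD2 at -0.19, and POLD1 at -0.17 did not pass the test (edgeR adjusted p = 0.0554).

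PCNA and RFC3 fell among the clamp and clamp loader genes. PCNA (ENSG00000132646, chromosome 20, 5114953 to 5126626 on the minus strand) had 3489, 3147 and 3441 normalized counts in siControl and 1855, 2003 and 2809 in siPVT1. No siPVT1 library reached the lowest siControl library, and the log2 fold change was -0.59 (standard error 0.145, edgeR adjusted p = 0.00787). RFC3, a small subunit of the loader, had 1410.3, 1269 and 1344 in siControl and 469.9, 617 and 975 in siPVT1 (log2 fold change -0.96, standard error 0.225, edgeR adjusted p = 0.00665). The other small subunits RFC2, RFC4 and RFC5 had log2 fold changes from -0.29 to -0.16, and none of these 3 passed edgeR's test, though all 3 were lower without siPVT1 replicate 3. In Okazaki fragment maturation, the flap nuclease FEN1 had 2253, 2019 and 2209 normalized counts in siControl and 1239, 1729 and 2642 in siPVT1, with siPVT1 libraries on both sides of siControl (log2 fold change -0.21, edgeR adjusted p = 0.474). The DNA ligase LIG1 had 990.4, 922 and 950.5 in siControl and 989, 1083 and 1178 in siPVT1 (log2 fold change 0.18, edgeR adjusted p = 0.0853).

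None of the 4 dNTP synthesis members passed the test as lower with all 6 libraries. RRM2 (ENSG00000171848, chromosome 2, 10120698 to 10211725 on the plus strand), the small subunit of ribonucleotide reductase, rose. It had 5804, 5561 and 5805 normalized counts in siControl and 6208, 6873 and 8676 in siPVT1, with every siPVT1 library above every siControl library. The log2 fold change was 0.34 (standard error 0.114, edgeR adjusted p = 0.0312). Scaling by the total count alone gave 0.19 (edgeR adjusted p = 0.172), and the call was also lost without any siControl library or without siPVT1 replicate 2, with adjusted p-values from 0.0612 to 0.0948. RRM1, the large subunit, had 4509, 4060.2 and 4425 in siControl and 3600.3, 3974 and 5282 in siPVT1 (log2 fold change -0.015, standard error 0.132, edgeR adjusted p = 0.933). TYMS, which makes dTMP, had 3570.1, 3329.8 and 3555 in siControl and 3391, 3731 and 5247 in siPVT1 (log2 fold change 0.24, edgeR adjusted p = 0.192). TK1, the salvage kinase for thymidine, had 979, 902 and 963 in siControl and 884, 961.5 and 1419.8 in siPVT1 (log2 fold change 0.20, edgeR adjusted p = 0.327). In RRM1, TYMS and TK1 siPVT1 replicate 3 stood above every siControl library. The other siPVT1 libraries were below the siControl range in RRM1, within and above it in TYMS, and below and within it in TK1. Without siPVT1 replicate 3, RRM1 was lower (-0.21, edgeR adjusted p = 0.00962), RRM2 was higher (0.18, edgeR adjusted p = 0.0137), and TYMS (0.015) and TK1 (-0.055) did not pass the test. TYMS overlaps ENOSF1 and TYMSOS, and RRM1 overlaps RRM1-AS1, on the opposite strand, and as the strand setting of the counts is not given in the sources used here, their reads could not be told apart. The same holds for GINS1 with NINL, GINS2 with GSE1, PRIM1 with HSD17B6, RFC4 with EIF4A2 and RFC5 with WSB2. FEN1, POLD1, POLA2 and PRIM1 share their position with protein-coding genes on the same strand, so that their counts are uncertain where reads could be split.

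E2F1 and E2F2, activators of S phase genes, did not pass the test. E2F1 had 566, 519 and 607 normalized counts in siControl and 344, 488 and 695 in siPVT1, on both sides of siControl (log2 fold change -0.14, standard error 0.219, edgeR adjusted p = 0.606). E2F2, the member with the fewest counts, had 52.4, 41.4 and 43.4 in siControl and 43.4, 88.5 and 137 in siPVT1 (log2 fold change 0.98, standard error 0.371, edgeR adjusted p = 0.051). Only siPVT1 replicate 1 lay within the siControl range of E2F2. DESeq2 gave E2F2 an adjusted p of 0.0313, and without siPVT1 replicate 1 its log2 fold change was 1.29 (edgeR adjusted p = 0.00214).

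The start regions of the members were read from RefSeq promoter sequences of GRCh38.p14, which cover 250 bases before a start and 50 after it. A window was found for 34 of the 38 members, 43 windows in all, and none for MCM4, MCM5, GINS4 and POLD3. The E2F words searched on both strands were TTTGGCGC, TTTCCCGC, TTTCGCGC and TTTGCCGC, and matches that overlap were counted as 1 site. At least 1 of these words was in 46.5% of the member windows (20 of 43), against 3.31% of 35116 windows of all genes. As many members are classical E2F targets, this share describes the choice of genes and not their response to the siRNA. The word CCAAT was in 60.5% of the member windows against 34.6%, and the E-box CACGTG in 9.3% against 7.26%. Among the 13 members with a window that fell, 9 held an E2F word, and among the other 21 members, 11 did. A match is only a run of letters, and no binding was measured here. Sequences of 5 members follow, cut to 250 bases before the start and 25 after it on the gene's own strand, with the E2F words in capitals. MCM3 and MCM6 are shown as subunits that fell and MCM7 as the subunit that did not, MCM10 for the deepest fall in a library and RRM2 for its rise.
MCM3 (chr6:52284718-52284992, minus strand): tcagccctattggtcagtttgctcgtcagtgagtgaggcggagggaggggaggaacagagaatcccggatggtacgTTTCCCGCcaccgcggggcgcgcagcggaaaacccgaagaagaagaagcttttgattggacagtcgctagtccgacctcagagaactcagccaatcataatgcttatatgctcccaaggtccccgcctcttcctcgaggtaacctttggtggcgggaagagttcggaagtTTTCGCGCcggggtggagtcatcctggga
MCM6 (chr2:135876419-135876693, minus strand): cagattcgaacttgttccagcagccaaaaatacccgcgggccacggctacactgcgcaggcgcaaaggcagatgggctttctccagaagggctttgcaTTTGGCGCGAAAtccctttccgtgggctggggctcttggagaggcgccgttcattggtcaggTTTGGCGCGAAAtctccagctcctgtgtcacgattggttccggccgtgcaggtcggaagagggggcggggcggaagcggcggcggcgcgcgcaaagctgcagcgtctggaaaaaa
MCM7 (chr7:100101373-100101647, minus strand): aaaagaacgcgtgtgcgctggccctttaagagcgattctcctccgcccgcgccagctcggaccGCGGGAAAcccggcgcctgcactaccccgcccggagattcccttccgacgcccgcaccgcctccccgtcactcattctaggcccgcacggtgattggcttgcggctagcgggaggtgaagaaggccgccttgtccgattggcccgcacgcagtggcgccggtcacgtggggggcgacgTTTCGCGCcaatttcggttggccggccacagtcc
MCM10 (chr10:13161308-13161582, plus strand): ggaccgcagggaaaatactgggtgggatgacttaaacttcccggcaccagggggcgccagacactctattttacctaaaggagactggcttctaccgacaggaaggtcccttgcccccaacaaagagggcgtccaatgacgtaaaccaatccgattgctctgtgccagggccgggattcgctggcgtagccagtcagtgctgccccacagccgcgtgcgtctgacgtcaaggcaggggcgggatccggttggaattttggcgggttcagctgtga
RRM2 (chr2:10122489-10122763, plus strand): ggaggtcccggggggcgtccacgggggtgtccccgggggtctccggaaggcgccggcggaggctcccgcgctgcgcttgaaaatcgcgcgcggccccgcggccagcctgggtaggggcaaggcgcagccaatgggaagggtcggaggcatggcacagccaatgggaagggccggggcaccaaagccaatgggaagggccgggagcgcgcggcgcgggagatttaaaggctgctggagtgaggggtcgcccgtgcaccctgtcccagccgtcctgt
MCM3 and, in the window shown, MCM7 had 2 sites each, of which the nearer began 4 and 9 bases before the start. The other MCM7 windows held none of these words. In MCM6 the 2 sites were the same run of 12 letters, which holds TTTGGCGC on the gene's strand and TTTCGCGC on the other, beginning 152 and 90 bases before the start. MCM10 and RRM2 had none of these words in the windows, and the RRM2 window shown held 3 CCAAT matches. Other forms of the E2F word were not searched, so a window without capitals may still hold one.

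The other genes of the pathway, 57 that are not among the members, were described in the same way, all of them tested. Of these, 21 were lower (36.8%, against 28.4% of all tested genes) and 12 higher (21.1%, against 29.5%) at an edgeR adjusted p under 0.05, and the median log2 fold change was -0.27. Past both thresholds, 5 were lower (background 9.64%) and SAMHD1 was higher (background 11.8%). Without siPVT1 replicate 3, 36 were lower (background 33.4%) and 11 higher (background 30.9%), and 9 were lower past both thresholds (background 11.2%). Of the 18 genes of origins, firing and the helicase in this list, 11 were lower (61.1%) and 0 higher, and of 9 dNTP genes 1 was lower (11.1%) and 6 higher (66.7%), beside the same backgrounds of 28.4% and 29.5%. The lowest value was that of TIPIN, a fork protection factor, which had 561, 531 and 601 normalized counts in siControl and 143.7, 166 and 276 in siPVT1 (log2 fold change -1.52, standard error 0.215, edgeR adjusted p = 0.000463). ORC5, a further subunit of ORC, had 742, 625 and 654 in siControl and 252, 293 and 297 in siPVT1 (log2 fold change -1.26, standard error 0.104, edgeR adjusted p = 2.66e-05). Unlike ORC1 and ORC6, its siPVT1 libraries lay close together. The same held for ORC2, ORC3 and ORC4, with coefficients of variation of 9.7%, 9.3% and 5.6% in siPVT1. These were lower too, at log2 fold changes of -0.29, -0.64 and -0.53 (edgeR adjusted p = 0.0142, 0.000199 and 0.000389). E2F4, an E2F that acts mainly as a repressor, had 1902, 1872 and 1883 in siControl and 709, 729.9 and 827 in siPVT1 (log2 fold change -1.32, standard error 0.075, edgeR adjusted p = 4.67e-06). CHAF1B, a histone chaperone subunit at the fork, was at -1.03 (standard error 0.307, edgeR adjusted p = 0.0203). POLD4, the small subunit of polymerase delta, was higher at 0.76 (standard error 0.186, edgeR adjusted p = 0.0081).

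The dNTP genes outside the members that the naming rule picked were SAMHD1, RRM2B and DCTPP1. SAMHD1, which breaks dNTPs down, had 974, 950.6 and 934 normalized counts in siControl and 1638, 1873 and 3047 in siPVT1 (log2 fold change 1.20, standard error 0.208, edgeR adjusted p = 0.0014), and without siPVT1 replicate 3 it was at 0.87. RRM2B, the alternative small subunit of ribonucleotide reductase, had 9198, 8554 and 9389 in siControl and 17332, 14797 and 10401 in siPVT1 (log2 fold change 0.65, standard error 0.162, edgeR adjusted p = 0.00886). Its siPVT1 libraries stood in the opposite order to those of RRM2, with siPVT1 replicate 1 highest. DCTPP1, a phosphatase that clears modified dCTP, had 709.5, 620.3 and 639 in siControl and 206, 302 and 415 in siPVT1 (log2 fold change -1.09, standard error 0.214, edgeR adjusted p = 0.00272).

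**Figure D4:**
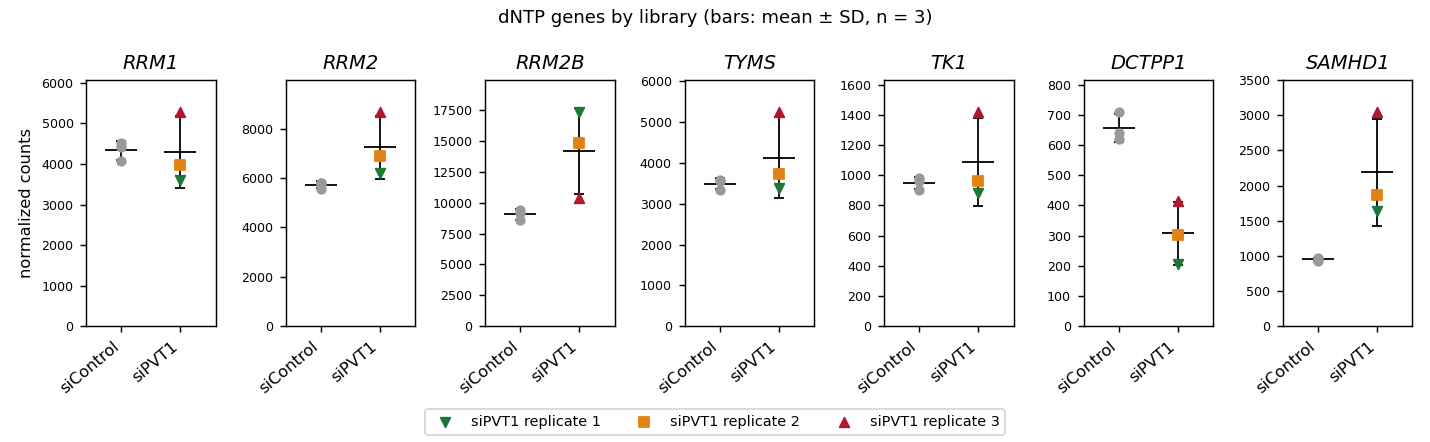
Normalized counts (y axis, from 0, with a scale of its own in each panel) of 7 genes of dNTP supply in each siControl library (grey) and each siPVT1 library (coloured), with the mean and SD of each group (n = 3) as black bars. RRM2, RRM2B and SAMHD1 lie above siControl in every siPVT1 library and DCTPP1 below it, while RRM1, TYMS and TK1 overlap.

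The median log2 ratio of the 57 pathway genes to the siControl mean was -0.45 in siPVT1 replicate 1, -0.33 in siPVT1 replicate 2 and 0.087 in siPVT1 replicate 3, in the same order as for the members. Over all tested genes these medians were -0.006, -0.011 and 0.0015.

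**Figure D5:**
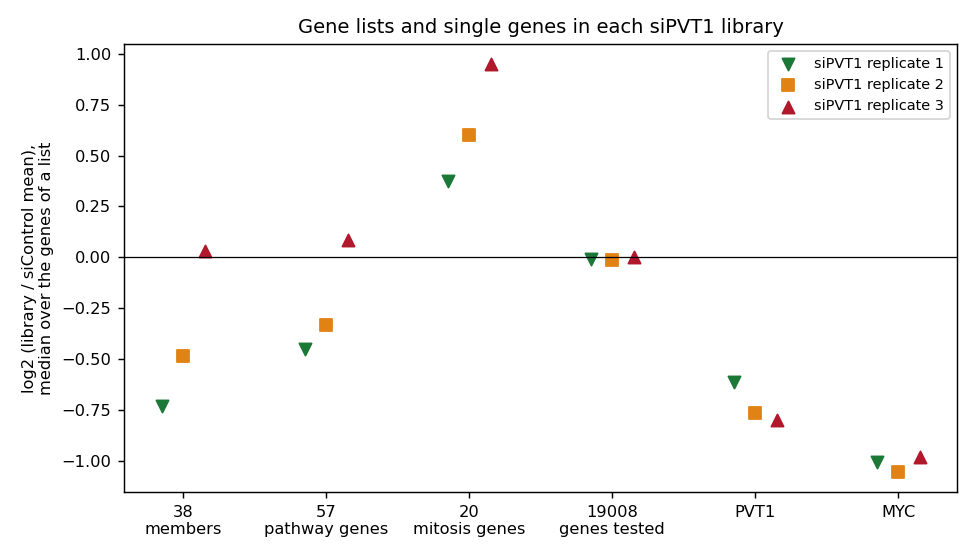
Median log2 ratio to the siControl mean (y axis) in each siPVT1 library (symbols) for the 38 members, the 57 pathway genes, 20 genes of mitosis and all tested genes, with the ratios of PVT1 and MYC themselves. The medians of the members lie at -0.73, -0.48 and 0.032, while those of all tested genes lie near 0.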

How the data were processed

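RNA of 6 SK-OV3 libraries was prepared with a kit for mRNA and sequenced as single-end reads. Reads were mapped by the authors with STAR (GENCODE annotation, build GRCh38.p13) and counted with Salmon. The submitters' processing notes list STAR 2.7.3a and Salmon 0.14.1. The values the authors deposited are estimated counts (expected counts) for each gene symbol, which are whole numbers and were not normalized. The strand setting is not given in the sources used here.

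All 6 columns were matched to samples by their labels. Counts were tested with edgeR 4.0.16 (R 4.3.3), using TMM normalization and the quasi-likelihood test with the siRNA as the only term, in the 19008 genes that reached 5 normalized counts in 3 or more libraries, over which p-values were adjusted by the Benjamini-Hochberg method. Thresholds were an adjusted p under 0.05, and for "both thresholds" also a log2 fold change of at least 1 in size. Standard errors were obtained from the log2 fold change and the F statistic (its size over the root of F). On simulated data for 18324 genes, the test recovered 93% of 200 changed genes and called 4 unchanged genes. The simulation gave every gene the same extra spread beyond that of counting, and changes larger than those of any member. It therefore does not tell how well the test works for the members, whose median coefficient of variation in siPVT1 was 28.3%. Alternatives were DESeq2 1.42.0, its size factors, scaling by the total count, other filters, a replicate block and each library left out.

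Transcript lengths and coordinates came from GENCODE v44 on GRCh38. The members and gene lists were chosen with earlier results of these data known. The genes named are all 38 members, PVT1, MYC, the pathway genes past both thresholds or among the 3 highest and 3 lowest that passed the adjusted p, the highest and the lowest mitosis gene, and markers that lead their list or are at 0. EPCAM, POLE3, POLE4, ORC2, ORC3 and ORC4 were named after their values were seen. Some listed markers are not reported here.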

Additional observations from a re-analysis of the deposited data

How the results depend on the processing

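The number of members lower by adjusted p, 16, lay between 7 and 31 with 1 library left out, which is 18.4% against 25.4% of all tested genes without siPVT1 replicate 2 and 81.6% against 33.4% without siPVT1 replicate 3, and the 3 past both thresholds became 1 to 9. The number higher by adjusted p, 1, became 0 to 5, and past both thresholds 0 became 1 without siPVT1 replicate 1. Scaling by the total count shifted the median of all genes to -0.15 and gave 5 members lower past both thresholds and 0 higher by adjusted p. DESeq2 and the fit without a filter each gave 3 higher by adjusted p. Of pathway genes, the 5 lower past both thresholds became 3 to 9, the 1 higher 0 to 1, and the 21 lower by adjusted p 17 to 36. The member median kept its sign under all 12 alternatives, from -0.60 to -0.20, and PVT1 its call.

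Directions reversed with 1 library left out in GINS4 (0.023), FEN1 (0.0048) and E2F1 (0.059) without siPVT1 replicate 1, in POLD1 (0.057) without siPVT1 replicate 2, in TK1 (-0.055) without siPVT1 replicate 3, and in RRM1 (0.0091 without siControl replicate 1, 0.082 without siPVT1 replicate 1 and 0.022 without siPVT1 replicate 2). Over all such omissions GINS4 ran from -0.47 to 0.023, POLD1 from -0.17 to 0.057, FEN1 from -0.56 to 0.0048, RRM1 from -0.21 to 0.082, TK1 from -0.055 to 0.32 and E2F1 from -0.45 to 0.059. None of these 6 genes passed the threshold with all libraries. The cause was not tested.

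The labels do not say whether libraries of the same number belong together. Over all tested genes, the deviations of same-numbered libraries from their group means had correlations of -0.032, 0.021 and 0.00086. With 3 libraries per group, and genes of few counts included, such values cannot exclude a pairing. With the replicate block 16 members were lower, the same genes as without it, and 4 were past both thresholds in place of 3. Depth limits E2F2 most among the members, with 39 raw counts in its lowest library.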

Other observations

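Genes of mitosis were described beside the replication genes in a list of 20. Of the 20, 18 were higher (90%, against 29.5% of all tested genes) and PLK1 was lower (5%, against 28.4%) in siPVT1 at an edgeR adjusted p under 0.05, with a median log2 fold change of 0.66. Without siPVT1 replicate 3 the counts were 18 (background 30.9%) and 1 (background 33.4%) and the median was 0.47. The difference between this list and the replication genes was not tested. NUF2, a kinetochore protein, had 1028, 943.6 and 1002 normalized counts in siControl and 1911, 2129.5 and 2526 in siPVT1 (log2 fold change 1.14, standard error 0.105, edgeR adjusted p = 4.52e-05). PLK1, a mitotic kinase, had 1675, 1628 and 1559 in siControl and 947, 1119 and 1534 in siPVT1 (log2 fold change -0.43, standard error 0.156, edgeR adjusted p = 0.0429). All 20 were highest in siPVT1 replicate 3 and lowest in siPVT1 replicate 1 among the siPVT1 libraries, as 35 of the 38 replication members were, against 28.7% of all tested genes. MYC, which lies beside PVT1, was lower past both thresholds (log2 fold change -1.01, standard error 0.055, edgeR adjusted p = 3.7e-06). It did not share this order, with log2 ratios to the siControl mean between -1.05 and -0.98 in the siPVT1 libraries, lowest in siPVT1 replicate 2.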
